A study of Mus musculus with 6 samples.

Results

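The BCL2 family of survival and death genes was examined in follicular B cells of GPR174 WT and GPR174-deficient (KO) mice after 1 h of culture. The members were a list of 10 genes with defined roles in mitochondrial cell death, chosen with earlier results of these data known. All 10 were present among the 12431 genes of the count table. WT cells came from Gpr174+/Y mice and KO cells from Gpr174-/Y mice, whose X-linked locus carries the tdTomato reporter where the receptor would be encoded. The allele is in the germline, so no promoter or Cre limits it to a cell type. All were adult males, and CD21/35- CD23+ B cells were sorted from their spleens and cultured in serum-containing medium with no added stimulus. There were 3 libraries per genotype, with no agent or second allele in either group.

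Cell death through mitochondria is set by contacts between members of this protein family. Pro-survival members (BCL2, BCL-XL, MCL1 and A1) hold back the pore-forming effectors BAX and BAK. BH3-only members, such as BIM, PUMA, NOXA and BID, bind and block the pro-survival proteins or engage the effectors directly. BIM, encoded by Bcl2l11, is known for its part in the deletion of autoreactive B cells and in the death of lymphocytes deprived of survival signals, and MCL1 and BCL2 are known to be needed by mature B cells.

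Bcl2l11 was higher in WT B cells and Bbc3, which encodes PUMA, was lower, while edgeR called no pro-survival gene and DESeq2 called Mcl1, lower in WT. Bmf, a BH3-only gene outside the list of 10, was also higher in WT. Of the 4 BH3-only members, 2 were called, 1 in each direction, against 1.82% of all tested genes, and with each library omitted in turn Bbc3 was called in 3 of 6 fits. The start regions of the 3 genes that edgeR called are shown first. The sequences are from RefSeq (GRCm38.p6, the build also called mm10), run from 250 bases before to 50 bases after an annotated start site, and are given 5′ to 3′ along the gene. Capitals mark matches, on either strand, to the core of the cAMP response element (TGACG, reverse complement CGTCA), which lies within the full element TGACGTCA, or to the FOXO motif GTAAACA (reverse complement TGTTTAC). The Bcl2l11 window is chr2:128125788-128126087 on the plus strand, the Bmf window chr2:118549637-118549936 on the minus strand and the Bbc3 window chr7:16310011-16310310 on the plus strand.
Bcl2l11: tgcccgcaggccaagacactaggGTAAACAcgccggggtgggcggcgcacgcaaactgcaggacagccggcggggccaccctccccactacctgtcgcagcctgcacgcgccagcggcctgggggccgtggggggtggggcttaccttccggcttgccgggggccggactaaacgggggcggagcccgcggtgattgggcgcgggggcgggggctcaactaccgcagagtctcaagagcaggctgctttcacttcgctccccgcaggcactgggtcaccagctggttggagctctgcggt
Bmf: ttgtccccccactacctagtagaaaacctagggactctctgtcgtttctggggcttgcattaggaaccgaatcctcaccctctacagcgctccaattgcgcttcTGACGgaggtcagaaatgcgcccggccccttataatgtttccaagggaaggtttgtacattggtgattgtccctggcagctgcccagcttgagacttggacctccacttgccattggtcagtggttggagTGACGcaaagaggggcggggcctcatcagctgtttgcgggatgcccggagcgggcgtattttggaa
Bbc3: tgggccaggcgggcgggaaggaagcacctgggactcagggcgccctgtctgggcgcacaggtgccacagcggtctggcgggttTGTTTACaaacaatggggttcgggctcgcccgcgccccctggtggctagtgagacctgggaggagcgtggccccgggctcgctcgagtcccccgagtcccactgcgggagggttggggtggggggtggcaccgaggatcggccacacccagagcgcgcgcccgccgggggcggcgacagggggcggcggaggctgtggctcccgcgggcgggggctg

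In these windows, Bcl2l11 held a FOXO match whose first base lay at -227 from the start site, and Bbc3 held a FOXO match on the reverse strand at -167. The Bmf window held 2 matches to the cAMP response element core, at -146 and -16. Of 32851 such windows over all genes, 3.65% held the FOXO motif, 20.81% the core and 1.79% the full element. The full element was in no window read for the family. Among 9 members, 14 windows were read, and besides those printed the core was found in windows of Bcl2, Bcl2a1b, Mcl1 and an upstream start of Bbc3. The other window of Bcl2l11, the 2 other windows of Bmf and a further window of Bbc3 held none of these letters. For each gene printed, the window shown is thus one that held a match, while the shares over all genes are per window and not per gene.

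Library totals lay between 8452460 and 10944833 counts. On the first principal component of the 500 most variable genes, WT replicate 2 stood apart, with a score of 32.5 against -8.18 to -4.33 in the other 5 libraries, and values that it turned or moved across the threshold are also given without it. Follicular B cell markers lay at very different levels. Ms4a1 lay between 1274 and 1413 CPM (counts scaled to a common library size with TMM factors). Fcer2a, which encodes CD23, lay between 403 and 571 CPM, Cd79a between 44.5 and 58.0 and Pax5 between 7.41 and 15.3. Cr2, which encodes CD21/35, lay between 981 and 1166 CPM, although the sort gate was for cells without it at the surface. Gpr174 itself was counted at 136, 125 and 121 CPM in WT and at 99.8, 100.2 and 99.8 CPM in KO (log2 fold change 0.35 ± 0.09 SE, edgeR adjusted p 0.0359, a call lost in 5 of 6 fits with a library omitted), and since the counts do not show where reads lie in the locus, they gave no check of the labels. Some marker lists moved with genotype. The summed level of 11 follicular B markers was 6365 to 6548 CPM in WT and 6881 to 7037 CPM in KO. Of these 11, 2 (Cd79b and Blk) were called lower in WT, against 0.514% of all tested genes. With each library omitted in turn, the Cd79b call was kept in 6 of 6 fits and the Blk call in 2 of 6. Plasma cell markers summed to 425 to 506 CPM in WT and 546 to 609 CPM in KO. Of 4 tested, 1 (Irf4) was called lower in WT, against the same 0.514%, and its call was kept in 4 of 6 such fits. The shift in this sum lay in Irf4, which averaged 373 CPM in WT and 484 CPM in KO. Xbp1 (79.8 CPM in WT and 78.8 CPM in KO), Prdm1 (12.5 and 12.5) and Sdc1 (8.59 and 6.67) overlapped between the genotypes. NK markers summed to 8.06 to 14.7 CPM in WT and 5.92 to 6.11 CPM in KO. Myeloid markers (80.8 to 102 CPM in WT, 77.3 to 83.4 CPM in KO) and T cell markers (48.1 to 65.8 and 34.9 to 54.4 CPM) overlapped between the genotypes. Erythroid markers overlapped too but spread widely, at 47.3 to 90.5 CPM in WT and 57.2 to 165 CPM in KO. The globin genes of that list were not in the count table. Marginal zone markers, mainly Cr2, also overlapped, at 1280 to 1366 CPM in WT and 1253 to 1449 CPM in KO. The part of these differences in the results on the BCL2 family was not tested.

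To ask whether the family differed between genotypes, all 10514 genes that passed a filter on low counts were tested together by edgeR's quasi-likelihood test, and all 10 members passed the filter. A gene was called at a Benjamini-Hochberg adjusted p under 0.05. Of the 10 members, 2 were called, 1 higher and 1 lower in WT. Over all tested genes 1.82% were called, 1.3% higher and 0.514% lower in WT. Because the members were chosen with earlier results known, these shares are set beside them as description only. The CPM of the genotypes did not overlap in 2 of the 10 members, against 16.7% of all tested genes, so this count was near the background. The median log2 fold change (WT over KO) of the members was -0.09, against -0.003 for all tested genes. At an unadjusted p under 0.05 there were 3 of the 10 members, the third being Mcl1, against 11.9% of all tested genes.

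**Figure D1:**
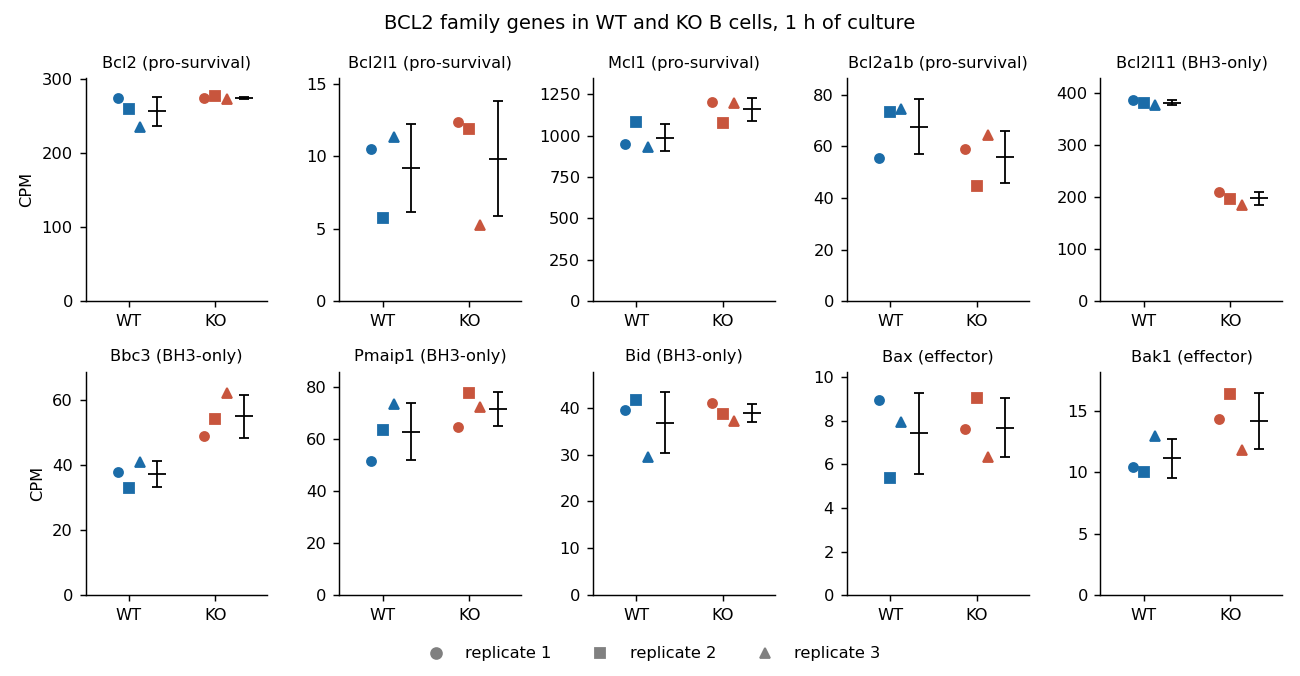
Level of each member (y axis, CPM from 0, own scale per gene) in WT and KO libraries (x axis). Symbols are the 3 replicates, and the black bar with whiskers is the mean ± SD. All 3 WT libraries lie above KO for Bcl2l11 (378 to 387 against 186 to 210.4 CPM) and below KO for Bbc3, and the genotypes overlap in the other 8 members.

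Among BH3-only members, Bcl2l11 (BIM, chromosome 2, 128126038 to 128162547, plus strand, GENCODE on mm10) showed the clearest difference. Its level was 387, 381 and 378 CPM in WT replicates 1 to 3 and 210.4, 197 and 186 CPM in KO replicates 1 to 3. Every WT library lay far above every KO library, and the WT libraries differed little among themselves, with an SD of 1.16% of the mean. WT libraries averaged 382 CPM ± 4.42 (SD, n = 3), 1.93 times the KO average of 198 CPM ± 12.4 (SD, n = 3). On the log2 scale Bcl2l11 was higher in WT than in KO by 0.95 ± 0.07 (SE, 95% interval 0.80 to 1.10, edgeR adjusted p 1.29e-09). By p value Bcl2l11 ranked 4 among 10514 genes, and by its gain in CPM (184) it ranked 21. The call was kept in all 14 alternative fits, and without WT replicate 2 the log2 fold change was 0.95. No other annotated gene overlaps Bcl2l11 on either strand. In bulk RNA, a change in the share of cells that express a gene and a change in RNA per cell cannot be told apart, and this holds for every value here.

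Bbc3 (PUMA, a p53-induced killer that binds all pro-survival members) moved the other way. It was at 37.9, 33.03 and 40.9 CPM in WT and at 48.8, 54.3 and 62.0 CPM in KO. All WT libraries lay below all KO libraries, with the closest pair being WT replicate 3 and KO replicate 1. WT libraries averaged 37.3 CPM ± 3.96 (SD, n = 3), and the KO average of 55.0 CPM ± 6.64 (SD, n = 3) was 1.48 times as high. This gave Bbc3 a log2 value, WT over KO, of -0.56 ± 0.13 (SE, 95% interval -0.83 to -0.29, edgeR adjusted p 0.0182). DESeq2 gave an adjusted p of 0.00892 and limma-voom 0.0317. The Bbc3 call was lost without WT replicate 2 (edgeR adjusted p 0.0660), without KO replicate 2 (0.0778) and without KO replicate 3 (0.225), and its direction was kept in all of these.

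The remaining BH3-only members did not pass the test. Pmaip1, which encodes NOXA, a BH3-only protein that acts mainly on MCL1 and A1, was at 51.6, 63.4 and 73.6 CPM in WT and 64.7, 77.6 and 72.5 CPM in KO. Its groups overlapped, and Pmaip1 gave a log2 fold change of -0.19 ± 0.12 (SE) and a 95% interval of -0.44 to 0.06 (edgeR adjusted p 0.592). Bid, which links death receptors to mitochondria once cut by caspase 8, was at 39.5, 41.6 and 29.4 CPM in WT and 41.0, 38.6 and 37.1 CPM in KO. Its lowest and highest libraries were both WT. The log2 fold change of Bid was -0.08 (95% interval -0.38 to 0.22, edgeR adjusted p 0.885), and it turned positive without WT replicate 3. Bid overlaps Bcl2l13 on the opposite strand and Gm44260 on its own, and since no source says whether strand was used in counting, its level is uncertain.

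Of the 4 pro-survival members, 0 were called by edgeR, 1 had an unadjusted p under 0.05 (against 11.9% of all tested genes) and 1 was called by DESeq2, in both cases Mcl1. Mcl1, a short-lived protein on which mature B cells depend, was at 952, 1082 and 929 CPM in WT and 1202, 1076 and 1196 CPM in KO. The groups overlapped only through WT replicate 2, which lay just above KO replicate 2. WT libraries averaged 988 CPM ± 82.9 (SD, n = 3), and KO libraries averaged 1158 CPM ± 70.9 (SD, n = 3). The estimate for Mcl1 on the log2 scale was -0.23 ± 0.07 (SE, 95% interval -0.37 to -0.09, edgeR adjusted p 0.0888). The adjusted p of Mcl1 was 0.0459 under DESeq2, 0.0618 under limma-voom and 0.0153 by edgeR without WT replicate 2, where the log2 fold change was -0.30.

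Bcl2, the founding pro-survival gene, was at 275, 259 and 236 CPM in WT and 274, 277 and 273 CPM in KO. KO libraries were nearly identical, with an SD of 0.676% of the mean, and WT replicate 1 lay among them. The estimate for Bcl2 was -0.10 ± 0.07 (SE) on the log2 scale, with a narrow 95% interval of -0.25 to 0.06 (edgeR adjusted p 0.679). D630008O14Rik overlaps Bcl2 on the opposite strand.

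Bcl2a1b, a mouse copy of A1, which NF-κB induces in activated B cells, was the only pro-survival member with a positive log2 fold change. It was at 55.4, 73.2 and 74.4 CPM in WT and 58.9, 44.8 and 64.4 CPM in KO. The groups overlapped, and the estimate was 0.27 ± 0.14 (SE, 95% interval -0.02 to 0.55, edgeR adjusted p 0.456). Its value is uncertain, since 66.7% of the 50-base windows in the last 500 bases of its transcript are also found, letter for letter, in another A1 copy. The other copies in the table, Bcl2a1a and Bcl2a1d, averaged 10 and 17 counts per library and were not called. Bcl2l1, which encodes BCL-XL, was low at this depth, at 10.5, 5.72 and 11.4 CPM in WT and 12.4, 11.9 and 5.26 CPM in KO. WT replicate 2 and KO replicate 3 were the lowest, and the 95% interval of its log2 fold change, -0.75 to 0.56, was wide (edgeR adjusted p 0.948). The estimate for Bcl2l1 was -0.09, and it was 0.15 without WT replicate 2.

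Both effectors were low and overlapped between genotypes, and 0 of 2 were called by edgeR, DESeq2 or limma-voom, with 0 at an unadjusted p under 0.05 (11.9% of all tested genes). Bax was at 8.97, 5.37 and 7.95 CPM in WT and 7.65, 9.05 and 6.34 CPM in KO, a log2 fold change of -0.04 (95% interval -0.64 to 0.56, edgeR adjusted p 0.976) that was 0.14 without WT replicate 2. Bak1 was at 10.4, 10.0 and 12.9 CPM in WT and 14.3, 16.4 and 11.8 CPM in KO. WT replicate 3 lay above KO replicate 3, and the log2 fold change of Bak1 was -0.35 (95% interval -0.82 to 0.13, edgeR adjusted p 0.610). These intervals are too wide to tell a modest change from none. Bak1 overlaps Ggnbp1 on the opposite strand, and Bcl2, Bax and Bcl2a1b each overlap another annotated gene on their own strand.

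**Figure D2:**
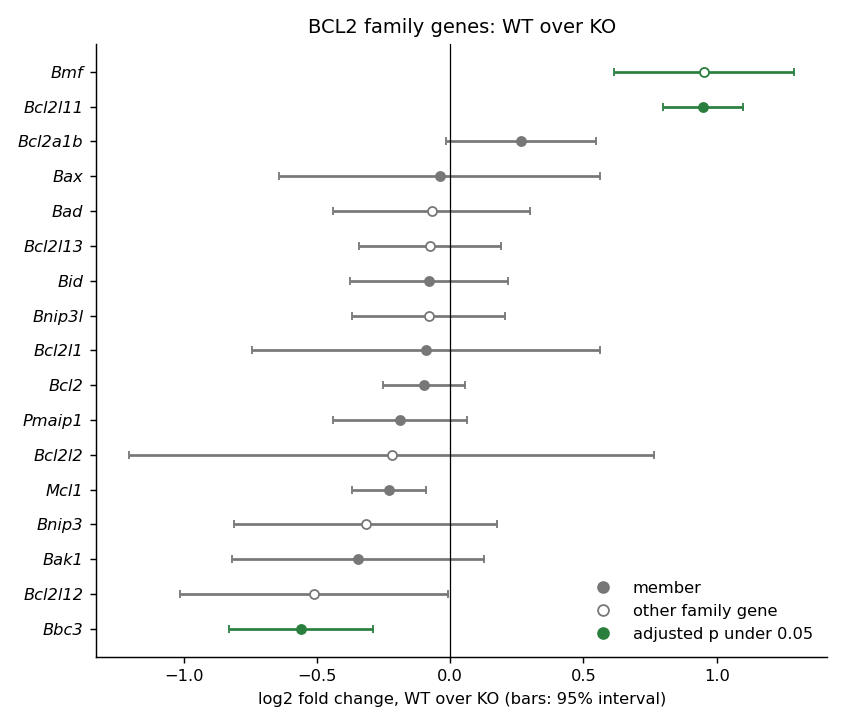
Log2 fold change, WT over KO (x axis), of the 10 members (filled) and other BCL2 family genes averaging 20 counts or more (open), in order of value, with 95% intervals. Green marks an edgeR adjusted p under 0.05. Bmf (0.95) and Bcl2l11 (0.95) stand at the top and Bbc3 (-0.56) at the bottom, and most other intervals span 0.

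The balance of death and survival transcripts was then described, without a test, since the members were chosen with results known. Reads of Bcl2l11 per read of a pro-survival gene need no library scaling, but carry each gene's own efficiency of counting, so only the change between genotypes is read. Per read of Mcl1 there were 0.406, 0.352 and 0.407 reads of Bcl2l11 in WT and 0.175, 0.183 and 0.155 in KO. Per read of Bcl2 there were 1.40, 1.47 and 1.604 in WT and 0.767, 0.712 and 0.679 in KO. Every WT library lay above every KO library in both ratios. Bcl2l11 is the numerator of each ratio and already differed without overlap, so these ratios restate its difference and are not separate support. Per read of Bcl2a1b the ratio was 5.08 to 6.99 in WT and 2.88 to 4.40 in KO, again without overlap. Per read of Bcl2l1 it was 33.3 to 66.5 in WT and 16.6 to 35.3 in KO, where KO replicate 3 lay among the WT libraries.

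**Figure D3:**
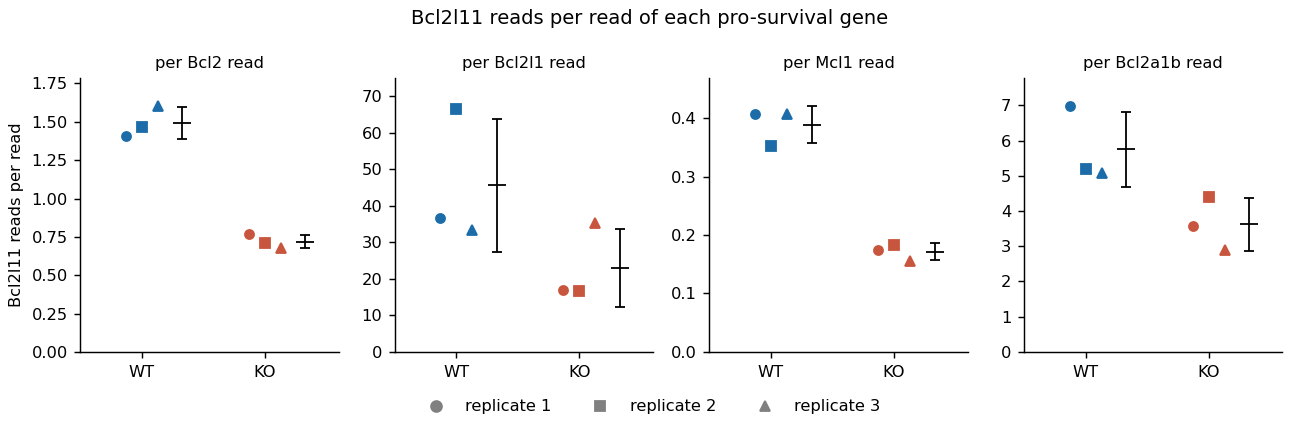
Reads of Bcl2l11 per read of each pro-survival member (y axis, from 0, own scale per panel) in WT and KO libraries (x axis), with the mean ± SD in black. The ratio to Mcl1 averaged 0.388 in WT and 0.171 in KO, and the ratio to Bcl2 averaged 1.49 in WT and 0.72 in KO. The ratio to Bcl2l1 overlaps between genotypes.

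The balance looked different when all members of a role were weighed alike. The mean log2 CPM of the 4 BH3-only members minus that of the 4 pro-survival members was -0.59, -0.465 and -0.62 in WT and -0.79, -0.58 and -0.47 in KO. The genotypes overlapped, and the difference of the means, WT minus KO, was 0.05, against SDs of 0.08 in WT and 0.16 in KO. This difference was 0.0074 without WT replicate 2 and -0.03 without KO replicate 1. In this mean Bcl2l11 and Bbc3 enter with opposite changes. The log2 ratio of Bcl2l11 to Bbc3 alone was 3.34, 3.52 and 3.20 in WT and 2.10, 1.86 and 1.58 in KO, a difference of 1.51. This ratio restates the opposite changes of both genes given above and is not separate support.

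Other relatives of BCL2 were examined for the same contrast. Of 16 listed, 11 were in the table and 9 passed the filter, and 1 was called, higher in WT (against 1.82% of all tested genes called). Their median log2 fold change was -0.08. The called gene was Bmf (chromosome 2, 118528757 to 118549687, minus strand), a BH3-only gene whose protein binds a myosin motor light chain in resting cells. It was at 39.7, 29.2 and 36.1 CPM in WT and 18.0, 18.3 and 18.0 CPM in KO. The KO libraries were almost alike and every WT library lay above them. Bmf was higher in WT by 0.95 ± 0.17 on the log2 scale (SE, 95% interval 0.61 to 1.29, edgeR adjusted p 0.000805). The call was kept in all 14 alternative fits. The log2 ratio of Bmf to Bcl2l11 was -3.45 in WT and -3.43 in KO, so both genes differed by about the same factor. Bcl2l12 came next by size of change among relatives averaging 20 counts or more, at -0.51, and was not called (edgeR adjusted p 0.410), with values of 7.39 to 11.0 CPM in WT and 12.3 to 13.7 CPM in KO. Bad, a BH3-only gene controlled by phosphorylation, had a log2 fold change of -0.07 ± 0.18 (SE, edgeR adjusted p 0.925).

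Downstream of mitochondria, 19 of 21 listed genes for the apoptosome, caspases and IAP inhibitors were tested and 0 were called by edgeR or under any alternative run, with 3 of 19 at an unadjusted p under 0.05, near the 11.9% of all tested genes. Those 3 were Apaf1, the scaffold of the apoptosome, and the IAP family genes Birc2 and Birc3. Apaf1 was at 24.8, 26.2 and 18.2 CPM in WT and 14.8, 15.0 and 14.9 CPM in KO, with a log2 fold change of 0.63 ± 0.19 (SE, edgeR adjusted p 0.108). Birc2 had a log2 fold change of 0.26 (edgeR adjusted p 0.199) and Birc3 of 0.25 (0.192). Birc5, a dividing-cell gene, had the largest estimate of this list, 0.92 ± 0.50 (SE), from a mean of 30.7 counts (edgeR adjusted p 0.495). Casp9 and Xiap had log2 fold changes of -0.07 and 0.08.

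Of 14 listed death receptor genes, 13 were tested and 1 was called, against 1.82% of all tested genes. The called gene was Tnfrsf1b, which encodes TNFR2, a TNF receptor without a death domain. It was at 188, 207 and 228 CPM in WT and 127, 134 and 124 CPM in KO, without overlap. Tnfrsf1b was higher in WT by 0.69 ± 0.09 on the log2 scale (SE, edgeR adjusted p 6.03e-06). Tnfrsf10b, a TRAIL receptor, had a larger but uncertain estimate, 1.02 ± 0.50 (SE), at 3.57 to 8.23 CPM in WT and 1.37 to 5.23 CPM in KO (edgeR adjusted p 0.430). Fas had a log2 fold change of 0.35 (edgeR adjusted p 0.758), Casp8 of -0.22 (0.603) and Cflar, the inhibitor of caspase 8, of -0.12 (0.781).

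Because Bbc3, Pmaip1 and Bax are textbook p53 targets, Trp53 and its target genes were set beside them. Of 25 listed genes, 21 were tested and 5 were called, 4 higher and 1 lower in WT, against 1.82% of all tested genes. The gene called lower was Bbc3. Those called higher were Plk2, Cdkn1a, Gadd45a and Btg2, which encode a kinase and inhibitors of growth and of the cell cycle rather than killers. Cdkn1a, the inhibitor p21, was at 20.1, 21.8 and 20.8 CPM in WT and 11.0, 10.8 and 8.38 CPM in KO, with a log2 fold change of 1.05 ± 0.21 (SE, edgeR adjusted p 0.00397). Its call was lost without KO replicate 3 (0.0529). Plk2 had a log2 fold change of 1.75, Btg2 of 0.65 and Gadd45a of 0.71, and the Gadd45a call (edgeR adjusted p 0.0366) held in 1 of the 6 fits with a library omitted, that without WT replicate 2, and was lost under limma-voom (0.0593). Trp53 had a log2 fold change of 0.43 ± 0.15 (SE, edgeR adjusted p 0.188) and Mdm2, the p53 target that degrades it, of -0.02 (0.960). The list had a median log2 fold change of 0.22, against -0.003 for all tested genes. Like the other lists, it was chosen with earlier results of these data known. It is not a list of p53 activity alone, since some of its genes also respond to other signals.

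Among 34 listed regulators of BCL2 family genes and proteins, 32 were tested and 3 were called, all higher in WT. Over all tested genes the share called was 1.82%. Usp9x, a deubiquitinase known to stabilise MCL1, was at 84.2, 105.9 and 74.7 CPM in WT and 61.9, 67.3 and 63.3 CPM in KO. Its log2 fold change was 0.46 ± 0.12 (SE, edgeR adjusted p 0.0344). The Usp9x call was lost without WT replicate 2 (0.214) and without KO replicate 1 (0.159), 2 (0.0931) or 3 (0.193), and under limma-voom (0.0602). Pim3, a survival kinase, had a log2 fold change of 0.40 ± 0.08 (SE, edgeR adjusted p 0.00617), and its call was lost without KO replicate 2 (0.0519). Nr4a1, whose protein NUR77 can bind BCL2, was at 1846, 2723 and 1954 CPM in WT and 723, 709 and 592 CPM in KO, without overlap. Its log2 fold change was 1.69 (edgeR adjusted p 0.0198), and the adjusted p was 6.86e-14 under DESeq2 and 8.08e-10 under limma-voom. By edgeR the Nr4a1 call was lost without KO replicate 1 (0.0634) or 2 (0.134). Foxo1, a transcription factor known to act on Bcl2l11 and Bbc3, had a log2 fold change of 0.19 ± 0.08 (SE, edgeR adjusted p 0.284). Ddit3, the stress factor CHOP, had one of -0.20 (0.709), and Trib3, at 0.477 to 3.46 CPM, one of -0.69 ± 0.64 (SE, 0.747). The median of the list was -0.01.

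**Figure D4:**
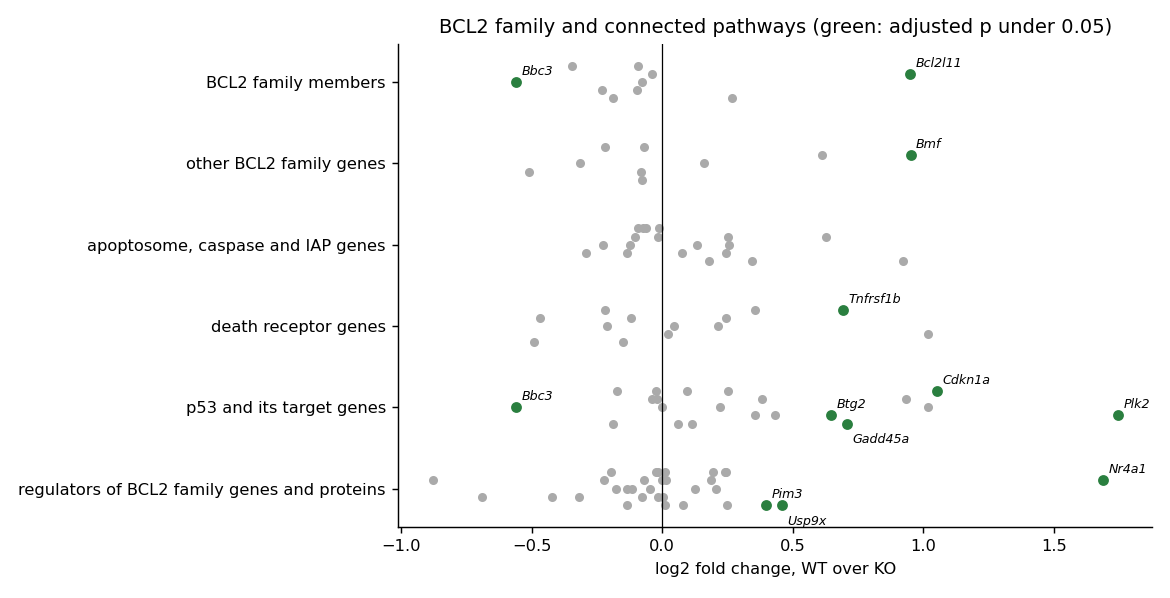
Log2 fold change, WT over KO (x axis), of the tested genes of the 6 lists (rows, with points spread vertically for legibility). Green points with names have an edgeR adjusted p under 0.05. Bbc3 stands in both the member list and the p53 list, and the apoptosome, caspase and IAP row holds no green point.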

How the data were processed

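RNA was sequenced from 3 WT and 3 KO samples of sorted follicular B cells, grouped by their titles. Per the study's methods, the authors primed libraries at transcript 3′ ends (the labels name only a standard Illumina protocol, and the doubt over A1 copies rests on 3′ counting), aligned single-end 50-base reads to mm10 with STAR and counted them with HTSeq. Versions, annotation and strand setting were not given in the sources used here. The deposited table holds raw counts, unnormalized and with no libraries pooled. Counts without molecular identifiers are not independent molecules. The lowest total of any gene in the count table was 10 counts, and 0 sample columns were left unused. Replicate pairs differed by 6.89 to 10.9 chi-square units per degree of freedom, so none were copies of a library. Labels do not tie each sample to a separate animal, although the design names 3 mice per genotype.

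Genes were filtered with filterByExpr and tested by edgeR's quasi-likelihood F test (version 4.0.16, R 4.3.3; robust dispersions, TMM factors, two-sided), with Benjamini-Hochberg adjustment over all tested genes. Standard errors were derived from the estimate and its F statistic. Log2 CPM used a prior count of 2. Alternatives were DESeq2 (1.42.0), limma-voom (limma 3.58.1), other scalings and filters, the replicate number as a block, and omission of each library. The test was also run on simulated counts with 200 genes changed, and that outcome is not used as support here. Members and lists were chosen with earlier results of these data known. Named genes were all members and, of each further list, the called genes and the 2 largest absolute log2 fold changes at a mean of at least 20 counts; others named were chosen after their values were seen.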

Additional observations from a re-analysis of the deposited data

How the results depend on the processing

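Bcl2l11, Bmf, Tnfrsf1b, Plk2 and Btg2 kept their calls in all 14 alternative fits. Across the 8 fits that changed the test, scaling, filter or block, the log2 fold change lay between 0.94 and 0.95 for Bcl2l11 and between -0.57 and -0.55 for Bbc3, and 2 or 3 members were called, the third being Mcl1 under DESeq2. Leaving out each library in turn gave 91 to 183 genes called (against 191), 1 to 2 members, 2 to 5 p53 genes and 0 to 3 regulators. Without KO replicate 3 there were 91 genes and 2 p53 genes, without KO replicate 2 there were 113 genes, 3 p53 genes and 0 regulators, and without KO replicate 1 there was 1 regulator. Only Bcl2l11 was called among the members without KO replicate 2 or 3, and without WT replicate 2 Mcl1 was called in place of Bbc3. The cause was not tested, beyond the fewer libraries. In those fits the log2 fold changes of uncalled members changed sign for Bcl2l1 (-0.39 to 0.15), Bax (-0.20 to 0.14) and Bid (-0.1719 to 0.0573), and the difference in mean log2 CPM of BH3-only and pro-survival members ranged from -0.0334 to 0.125. Same-numbered WT and KO samples deviated together only weakly (correlations 0.0498, 0.0136 and 0.0432), though each correlated best with its own number, so the numbers were not taken to pair the samples. With the replicate block 281 genes and 2 members were called, and the adjusted p was 0.0119 for Bbc3 and 0.0674 for Mcl1. Low counts limit Bcl2l1, Bax and Bak1.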

Other observations

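Among relatives of BCL2, Bcl2l14 and Bcl2l15 were in the table but too low for the test. Bcl2l15 had 10, 14 and 4 counts in WT and 0, 1 and 5 in KO. Bcl2l14 had 7, 0 and 2 counts in WT and 0, 6 and 8 in KO. Rel, an NF-κB subunit known to induce A1 genes and set beside Bcl2a1b after its value was seen, was at 465, 478 and 501 CPM in WT and 395, 428 and 397 CPM in KO, without overlap. The log2 estimate for Rel was 0.24 ± 0.07 (SE, edgeR adjusted p 0.0590), and its adjusted p was 0.01265 under DESeq2 and 0.0354 with the replicate number as a block. Under limma-voom the adjusted p of Rel was 0.0646. With each library omitted in turn it was 0.0827 to 0.296 by edgeR, and Rel was called in 0 of those fits.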
